A study of Drosophila melanogaster with 6 samples.

Results

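Glutathione transferase genes of the classes D, E, O, S and T (delta, epsilon, omega, sigma and theta) were followed across 6 RNA-seq libraries of Drosophila melanogaster larvae. The members were all genes of the count table whose FlyBase identifier carries a symbol starting with GstD, GstE, GstO, GstS or GstT. These were 33 of 14869 genes, with 11 of class D, 14 of class E, 3 of class O, 1 of class S and 4 of class T. The rule uses gene names and no measured value, but the family was picked for study with earlier results of these data known.

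The libraries hold polyadenylated RNA of male larvae of the third instar in its wandering phase, raised at 25 °C, in 3 groups of 2 biological replicates each. The groups are central brain (without the ventral nerve cord), fat body of larvae fed 25 µM 4-hydroxytamoxifen (4-HT) in their food, and control fat body of larvae on the same food without it. Each brain library pooled 30 larvae and each fat body library 18. Every library, controls included, was an equal mix of 6 transgenic lines in a y,w background, with 5 larvae of each line for brain and 3 for fat body. All lines carry the bacterial DNA methylase Dam under the promoter FL.hsp70P at the site ZH51C, with a 4-HT-intein at L127C. In 1 line Dam is unfused, and in the other lines it is fused to PC, H1, HP1, MRG15 or BRM. An effect of 4-HT on the tissue cannot be told apart from an effect of Dam set free by the intein in the same larvae, and single lines cannot be told apart within a pool.

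Glutathione transferases join the thiol of the tripeptide glutathione to reactive compounds, which makes these easier to clear, and some also reduce peroxides or bind lipophilic compounds without converting them. The delta and epsilon classes are expanded in insects and are known for the metabolism of insecticides and of lipid peroxidation products. The omega class uses a cysteine in place of the usual serine or tyrosine and is known for reducing dehydroascorbate and mixed disulfides. The larval fat body combines the storage and detoxification roles that adipose tissue and liver share in vertebrates, whereas the central brain is shielded by a glial barrier.

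The libraries held 20687696 to 65802288 counts. Levels are given as CPM (counts scaled to a common library size) after scaling by the trimmed mean of M values (TMM), and SD and SE rest on 2 replicates a group, each a pool of larvae, so that p-values cover only the spread between such pools. Tissue labels were checked by their markers. The neuronal gene elav stood at 204 and 245 CPM in brain, 2.28 and 1.19 CPM with 4-HT and 1.12 and 2.58 CPM in control fat body. Of the 9 tested neuron markers 8 were higher in brain and Syt1 was lower (log2 fold change -2.61), and of the 9 tested glia markers 6 were higher and Eaat1 was lower (-1.93). All 10 matched fat body markers were lower in brain. Control fat body replicate 1 stood apart. The 11 salivary gland markers summed to 70.7 and 9.07 CPM in brain, 75.3 and 60.0 CPM with 4-HT and 1875 and 98.0 CPM in control fat body. In the other 3 fat body libraries most of the sum came from CrebA, at 72.0 and 56.5 CPM with 4-HT and 95.5 CPM in control replicate 2. The glue protein gene Sgs3 alone stood at 421 and 0.395 CPM in the control replicates. In brain it stood at 20.4 and 0.0990 CPM, so that brain replicate 1 also held glue gene transcripts, at a lower level. The 10 matched hemocyte markers summed to 61.2 and 47.3 CPM in brain, 1540.2 and 1573 CPM with 4-HT and 1835 and 2039 CPM in control fat body. Of these 10 genes 7 were higher in control replicate 1 than in control replicate 2, against 5795 of all 10029 tested genes. Among the 7 were Hml (48.6 and 16.1 CPM) and Pxn (55.9 and 10.0 CPM). Col4a1 (1283 and 1443 CPM), srp (375 and 549 CPM) and lz (0.0660 and 0.251 CPM) were lower in control replicate 1, and Col4a1 and srp made up most of the sum. For called members whose fold moved by over 1.5 times without control replicate 1, the value without it is given.

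The classes made up different parts of the family in the tissues. As a share of the 33 genes' counts within a library, a measure that no scaling between libraries touches, class E took 29.0% and 29.2% in brain, 48.4% and 48.8% with 4-HT and 43.8% and 49.4% in control fat body. Class E was thus the largest class in every library, and its share in both brain libraries lay below that in every fat body library. Class O, with its 3 genes, took 15.1% and 15.2% in brain, 9.59% and 9.74% with 4-HT and 5.94% and 6.70% in control fat body. The single class S gene took 24.7% and 23.9% in brain, 16.1% and 15.4% with 4-HT and 15.5% and 17.5% in control fat body. For classes O and S the brain share was the higher one, without overlap. Class T took 8.48% and 10.8% in brain, 15.1% and 16.2% with 4-HT and 10.0% and 14.8% in control fat body. Class D took 22.7% and 20.9% in brain, 10.8% and 9.82% with 4-HT and 24.7% and 11.7% in control fat body. Shares of classes D and T in the control replicates spanned or met those of brain, so that these classes were not separated between brain and control fat body.

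**Figure D1:**
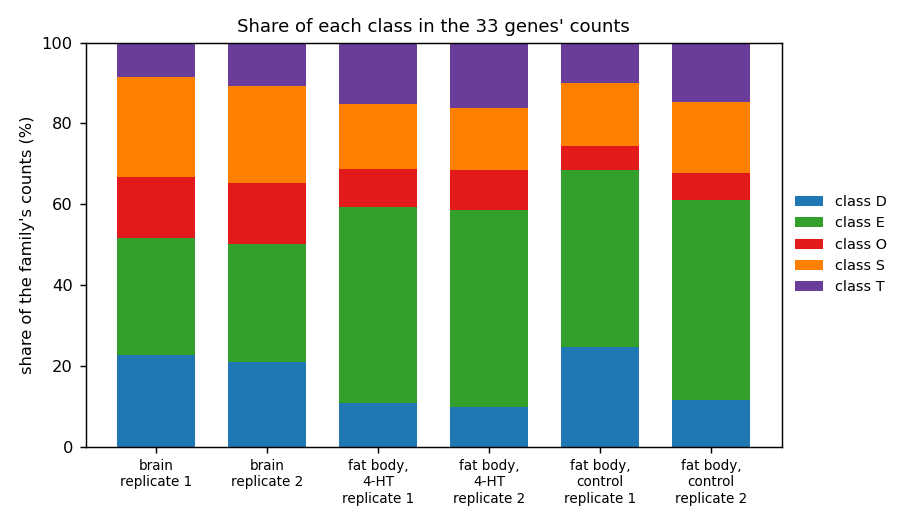
Stacked bars give the share (%) of each class in the counts of the 33 genes, 1 bar for each library, with brain on the left, 4-HT fat body in the middle and control fat body on the right. Class E takes under 30% in both brain bars and over 43% in all 4 fat body bars, and class D is over 20% in brain and in control replicate 1 only.

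The sum over the family was lower in brain. It came to 188 and 155 CPM in brain, 2040 and 2244 CPM with 4-HT and 2799 and 2032 CPM in control fat body. Without TMM, as plain CPM of all counts, it came to 543 and 472 in brain, 1179 and 1379 with 4-HT and 1640 and 1112 in control fat body. Brain stayed below fat body on both scales, and the gap narrowed because TMM scaled brain libraries by 2.88 and 3.05 and fat body libraries by 0.547 to 0.615. In bulk tissue fewer cells of a type and less RNA per cell cannot be told apart.

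A few members supplied most of the transcripts, and they were not the same few in the tissues. Per kilobase of coding length, which allows genes to be compared, GstS1 (62.1 and 49.4 CPM per kb) and GstD1 (55.1 and 41.9) led in brain, ahead of GstE12 (34.9 and 30.8), GstO2 (32.1 and 25.2) and GstE13 (18.6 and 13.8). The replicates of GstS1 and GstD1 overlapped across the brain libraries, as did those of GstE12 and GstO2. Within each brain library, on this length basis, GstS1 lay above GstD1 and GstE12 above GstO2. With 4-HT the order of the means was GstE12 (706 CPM per kb), GstE3 (566), GstS1 (449), GstD1 (302) and GstT4 (295). In control fat body it was GstE12 (777 CPM per kb), GstD1 (646.5), GstE3 (600.2), GstS1 (527) and GstT4 (250.2), where GstD1 alone ranged between 959 and 334 CPM per kb in the replicates. The 6 leading genes of a library held 79.5% and 77.2% of the family's CPM per kb in brain, 84.1% and 80.9% with 4-HT and 83.7% and 84.5% in control fat body. GstE3, among the 3 highest members of both fat body groups, ranked 18 in brain.

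**Figure D2:**
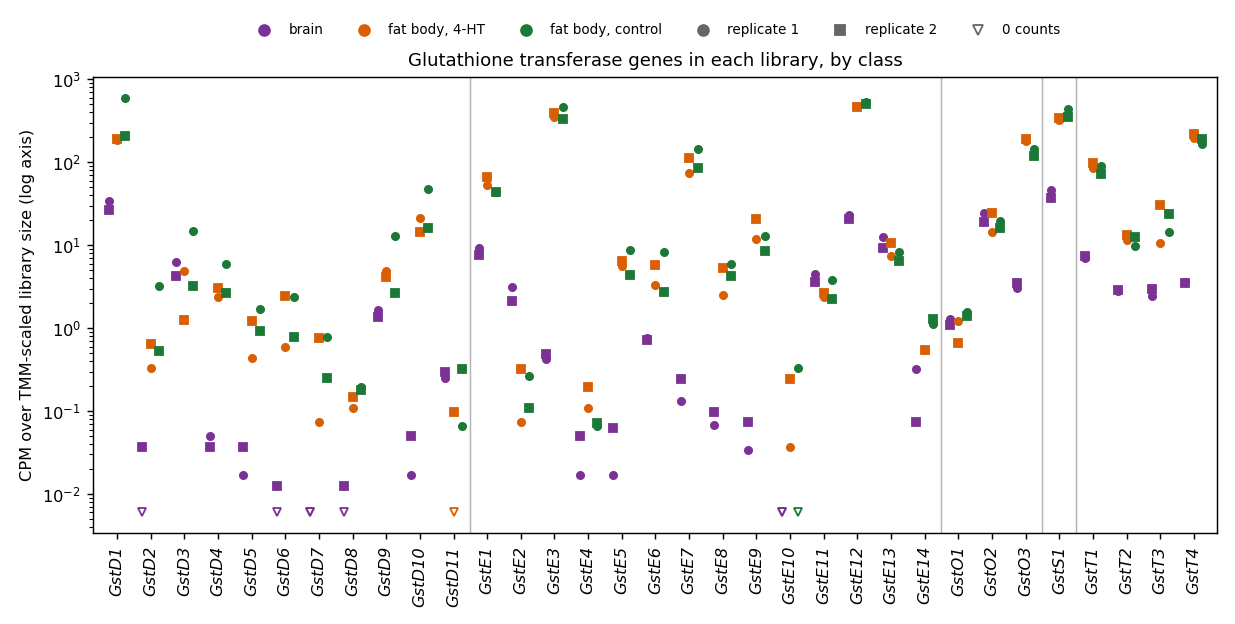
Points give the level of each of the 33 genes (log axis, CPM over the TMM-scaled library size), with brain in purple, 4-HT fat body in orange and control fat body in green, circles for replicate 1, squares for replicate 2 and open triangles for 0 counts. Genes are ordered by class, divided by vertical lines, and brain points lie below the fat body points for most members, with GstE2 as the clearest exception.

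Brain was then compared with control fat body gene by gene, in edgeR's quasi-likelihood fit over all 6 libraries and all 10029 genes that passed the filter on low counts, of which 30 were members (GstD8, GstE4 and GstE10 did not pass). At an adjusted p under 0.05, 23 of the 30 tested members were lower in brain and 1, GstE2, was higher, while 34.5% of all tested genes were lower and 35.5% higher. The 6 members that did not pass were GstD3, GstD11, GstE11, GstE13, GstO1 and GstO2. The median log2 fold change was -3.62 over the members and 0.11 over all tested genes. Both brain replicates lay below both control replicates for 24 of the 30 and above them for 2, against 41.4% and 45.2% of all tested genes. In either direction 24 members were called, against 70.0% of all tested genes, and 24 had an unadjusted p under 0.05 (72.6%), while DESeq2 called 25 of the 33 (63.1% of the genes it tested). Scaled by library size alone, the medians were -1.25 over the members and 2.49 over all tested genes, and 16 members were lower and 6 higher (11.8% and 75.5% of all genes). On that scale GstD11, GstE11, GstE13, GstO1 and GstO2 joined GstE2 among the higher ones, and GstD7, GstD9, GstE1, GstE6, GstE14, GstT2 and GstT3 lost their call. The members thus lay under the middle of all genes on both scales, whereas the direction of GstD3, GstE1, GstO1 and GstT2 turned with the scale.

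**Figure D3:**
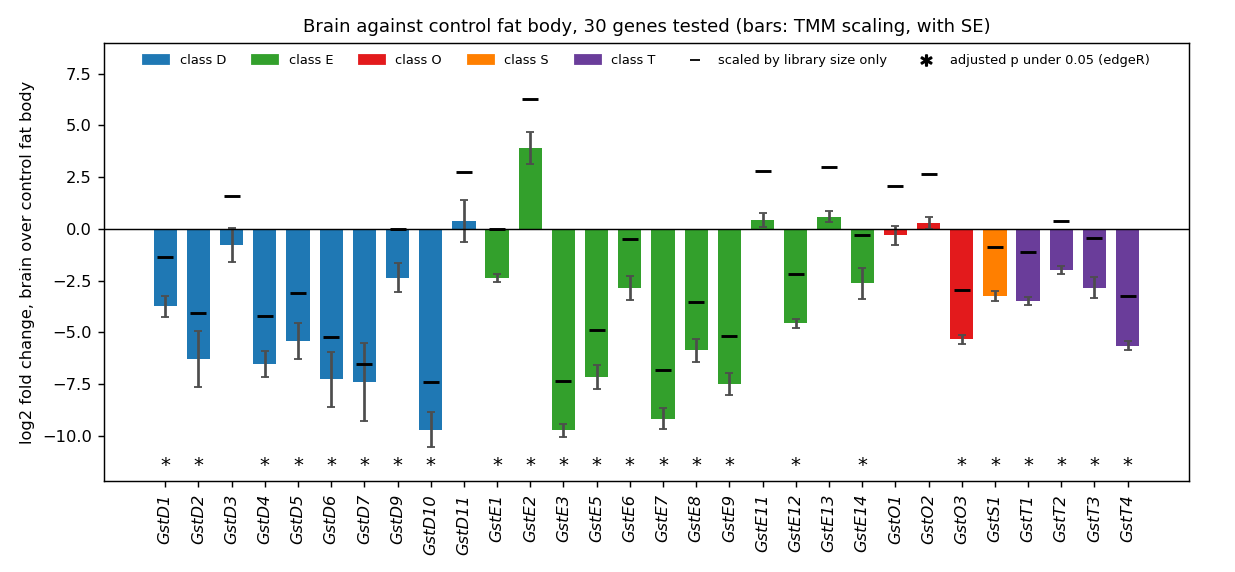
Bars give the log2 fold change of brain over control fat body with its SE for the 30 tested genes, coloured by class, with an asterisk where the edgeR adjusted p is under 0.05 and a dash where the value falls when libraries are scaled by size alone. GstE2 is the 1 bar with an asterisk above 0, and the dashes lie above their bars, on the other side of 0 for GstD3, GstE1, GstO1 and GstT2.

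Class D was almost silent in brain apart from GstD1, GstD3 and GstD9. Of its 10 tested members 8 were lower in brain and none was higher, against 34.5% and 35.5% of all tested genes. The class median, as a log2 fold change, was -5.85 (-3.59 when scaled by library size alone, and -4.72 without control replicate 1). All 11 class D genes sit on chromosome arm 3R, as neighbours among the protein-coding genes of the release 6 annotation. The only other protein-coding gene among them is CG10035, between GstD8 and GstD11. GstD2 to GstD8 each consist of a single exon. GstD1, whose enzyme is known for breaking down DDT and whose promoter is a common reporter of oxidative stress, had 34.6 and 26.3 CPM in brain, 186 and 192 CPM with 4-HT and 601 and 209 CPM in control fat body. Brain lay below both fat body groups, and control replicate 1 was far above the other fat body libraries. The log2 fold change of brain over control was -3.74 (SE 0.51, edgeR adjusted p = 7.24e-04), and -2.75 without control replicate 1 (adjusted p = 8.14e-05). GstD10 had 1 and 4 counts in the brain libraries, 573 and 584 with 4-HT and 728 and 450 in control fat body, which is 0.0168 and 0.0495 CPM in brain, 21.1 and 14.4 CPM with 4-HT and 48.0 and 16.1 CPM in control fat body. It had the lowest log2 fold change of the class, -9.70 (SE 0.83, edgeR adjusted p = 7.90e-05; -8.71 without control replicate 1 and -10.55 without brain replicate 2).

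The inner part of the class D cluster was close to the detection limit in brain. GstD4 had 3 and 3 counts in brain, 65 and 125 with 4-HT and 90 and 75 in control fat body, and GstD5 had 1 and 3 in brain, 12 and 49 with 4-HT and 26 and 26 in control fat body. Their log2 fold changes were -6.54 (edgeR adjusted p = 1.25e-04) and -5.41 (adjusted p = 0.00153). Without control replicate 1 GstD4 had -5.86 (adjusted p = 5.85e-05). Both genes were detected in every library, with brain far below the fat body. With 4-HT GstD2 had 9 and 26 counts, GstD6 16 and 100, GstD7 2 and 31 and GstD8 3 and 6. GstD2 had 3 counts in brain and 64 in control fat body, a ratio of control over brain of 69.6 after scaling (95% counting interval 22.8 to 346.5). GstD6 had 1 count in brain and 58 in control fat body, a ratio of 189 (32.7 to 7605), and GstD8 had 1 and 8, a ratio of 26.1 (3.50 to 1159). GstD7 had 0 counts in brain and 19 in control fat body, 20.7-fold lower in brain when brain is set to a floor of 3 counts for the group. The intervals cover counting error only. The floor takes the control count as exact, so the fold of GstD7 does not cover the counting error of control fat body. GstD2 and GstD6 were called lower in brain throughout the alternatives that tested them. Their fitted log2 fold changes, -6.30 and -7.28, depended on single libraries, at -4.53 and -6.34 without control replicate 1 and at -8.96 and -8.71 without brain replicate 2. GstD7 (edgeR adjusted p = 0.0159) missed the threshold without either brain replicate (adjusted p = 0.0561 and 0.0668) and kept it without control replicate 1 (adjusted p = 0.0483), where its fitted log2 fold change of -7.40, which is no bound on a gene at 0, came to -6.57.

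GstD3, GstD9 and GstD11 departed from this pattern. GstD3 had 6.21 and 4.25 CPM in brain, 4.93 and 1.26 CPM with 4-HT and 15.0 and 3.23 CPM in control fat body, and its groups overlapped (log2 fold change of brain over control -0.78, SE 0.81, edgeR adjusted p = 0.416; 1.57 when scaled by library size alone and 0.73 without control replicate 1). GstD9 had 1.66 and 1.35 CPM in brain, 4.89 and 4.10 CPM with 4-HT and 13.0 and 2.66 CPM in control fat body. It was called lower in brain, by a log2 fold change of -2.36 (SE 0.68, edgeR adjusted p = 0.0192). That call was lost by library size alone (-0.01, adjusted p = 0.988), without a filter on low counts (adjusted p = 0.0528), with only the 4 libraries compared (0.0593) and without any 1 library other than control replicate 2 (0.0708 to 0.117). Of the fits without 1 library, the value moved most without control replicate 1, to -0.79 (adjusted p = 0.0949), and was -3.10 without control replicate 2. GstD11, at the far end of the cluster, had 15 and 24 counts in brain, 0 and 4 with 4-HT and 1 and 9 in control fat body. Its control replicates enclosed the brain values in CPM (0.252 and 0.297 in brain, 0.0660 and 0.323 in control), and its log2 fold change of 0.37 (edgeR) came to -0.20 without control replicate 1. Relative to GstD1, GstD3 made up more in brain than in fat body: 1 GstD3 count stood beside 5.57 and 6.17 GstD1 counts in brain, beside 37.8 and 152 with 4-HT and beside 40.0 and 64.8 in control fat body.

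In class E the 1 member called higher in brain lay beside one of the lowest. Of its 12 tested members 9 were lower in brain, 1 was higher and 2 did not pass, while 34.5% of all tested genes were lower and 35.5% higher. The class median, as a log2 fold change, was -3.71 (-1.34 when scaled by library size alone). A row of 10 of its genes lies on chromosome arm 2R without other protein-coding genes between them in the release 6 annotation. Their order is GstE10 and then GstE1 to GstE9, and GstE1 to GstE9 are single-exon genes on 1 strand. GstE2 had 187 and 174 counts in brain, 2 and 13 with 4-HT and 4 and 3 in control fat body. As levels these are 3.14 and 2.15 CPM in brain, 0.0736 and 0.321 CPM with 4-HT and 0.264 and 0.108 CPM in control fat body. Both brain replicates were above every fat body library, with a log2 fold change of 3.92 over control (SE 0.79, edgeR adjusted p = 0.00415), and 3.33 to 4.62 without 1 or the other control replicate. The neighbour GstE3 had 0.420 and 0.495 CPM in brain, 353 and 394 CPM with 4-HT and 459 and 333 CPM in control fat body. Its log2 fold change, -9.74 (SE 0.33, edgeR adjusted p = 4.08e-06), was not separated from that of GstD10 (-9.70, SE 0.83). These were the lowest values of the 30 tested members, and their order turned with DESeq2 (-9.67 for GstE3 and -9.75 for GstD10) and by library size alone (-7.36 for GstE3 and -7.41 for GstD10).

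The ratio of these neighbours within a library needs no scaling between libraries. For each GstE3 count there were 7.48 and 4.35 GstE2 counts in the brain libraries. In fat body the order was turned round, with 4798 and 1226 GstE3 counts for each GstE2 count with 4-HT and 1738 and 3098 in control fat body. Both genes have a coding length of about the same size, 663 bases for GstE2 and 660 for GstE3, so the ratio is little affected by length. GstE1, on the other side of GstE2 and known to conjugate the lipid peroxidation product hydroxynonenal, had 9.18 and 7.68 CPM in brain, 52.7 and 66.1 CPM with 4-HT and 43.6 and 44.1 CPM in control fat body. It was lower in brain by TMM (log2 fold change -2.38, SE 0.19, edgeR adjusted p = 5.91e-05), but stood at 0.0047 (adjusted p = 0.983) when scaled by library size alone. The adjacent GstE1, GstE2 and GstE3 thus had log2 fold changes of -2.38, 3.92 and -9.74.

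**Figure D4:**
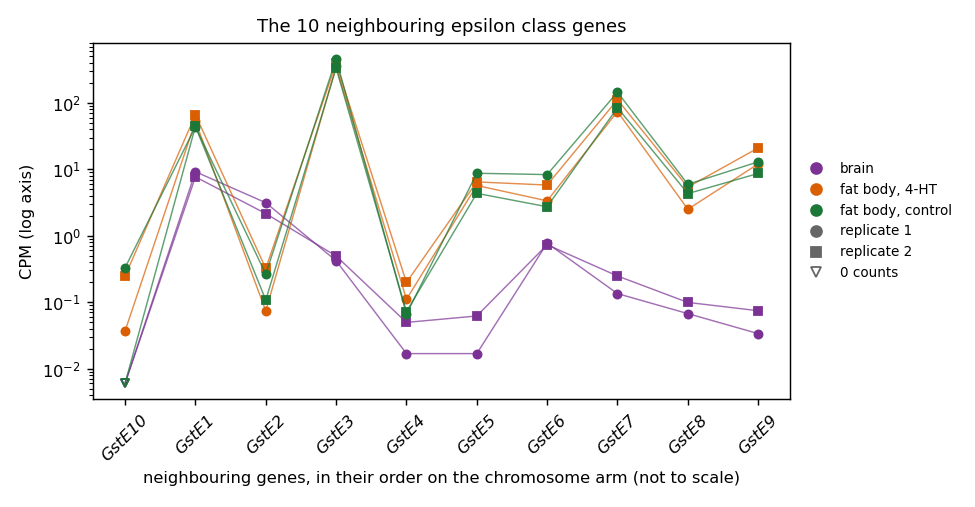
Lines join the levels (CPM, log axis) of the 10 neighbouring class E genes in their order on the chromosome arm, not to scale, 1 line for each library, with brain in purple, 4-HT fat body in orange and control fat body in green. All libraries share high GstE1, but the fat body lines peak at GstE3 and GstE7, where the brain lines lie under 0.5 CPM, and only at GstE2 do the brain lines run above the others.

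Farther along the same row the genes were again near silence in brain. GstE7 had 0.134 and 0.247 CPM in brain, 74.0 and 112 CPM with 4-HT and 145 and 84.5 CPM in control fat body, with a log2 fold change of -9.17 (SE 0.52, edgeR adjusted p = 1.44e-05). GstE5, GstE8 and GstE9 had 1 to 8 counts in each brain library against 90 to 241 in the control fat body libraries and 68 to 846 with 4-HT. Their log2 fold changes were -7.17, -5.87 and -7.50, with adjusted p from 3.22e-05 to 1.33e-04. GstE5 had -6.58 without control replicate 1 and -8.25 without brain replicate 2, and GstE9 -8.11 without brain replicate 2. GstE9 shares 40 exonic bases with imd on the opposite strand, and the strand setting of the counting is not given in the sources used here. GstE6, in the middle of these genes, was detected more readily in brain. It had 0.772 and 0.730 CPM there, 3.35 and 5.79 CPM with 4-HT and 8.31 and 2.73 CPM in control fat body. Its log2 fold change of -2.85 (SE 0.58, edgeR adjusted p = 0.00440) came to -1.83 without control replicate 1 (adjusted p = 0.00746) and to -0.50 by library size alone (adjusted p = 0.466). GstE4 and GstE10 were hardly transcribed in any tissue, with 1 to 8 and 0 to 10 counts in a library. GstE10 had 0 counts in both brain libraries and 5 and 0 in control replicates 1 and 2, so that the groups overlapped and no fold is given. Reads that near-identical copies of such clusters share may be lost or split, and how they were counted is not given in the sources used here.

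Of the 4 class E genes outside the row, on the same arm, GstE12 and GstE14 were lower in brain and GstE11 and GstE13 did not pass. GstE12 had the highest mean of the family per kilobase of coding length in both fat body groups, although GstD1 was above it in control replicate 1 (959 and 792 CPM per kb). Per kilobase of exonic length GstE3 exceeded it in every fat body library, with 467 and 522 CPM per kb for GstE3 and 339 and 337 for GstE12 with 4-HT, and 608 and 442 for GstE3 and 379 and 365 for GstE12 in control fat body. GstE12 had 23.4 and 20.6 CPM in brain, 474 and 471 CPM with 4-HT and 529.6 and 510.4 CPM in control fat body. Replicates differed little, and the log2 fold change of brain over control was -4.56 (SE 0.21, edgeR adjusted p = 7.03e-06; -2.18 when scaled by library size alone). GstE11 had 4.48 and 3.60 CPM in brain, 2.35 and 2.65 CPM with 4-HT and 3.83 and 2.26 CPM in control fat body, with overlapping groups (log2 fold change 0.42, SE 0.33, edgeR adjusted p = 0.289). GstE13 had 12.6 and 9.36 CPM in brain, 7.39 and 10.6 CPM with 4-HT and 8.25 and 6.42 CPM in control fat body. Both its brain replicates lay above both control replicates, yet the log2 fold change of 0.59 (SE 0.27) did not pass in edgeR (adjusted p = 0.0867; under the alternatives it lay between 8.84e-05 and 0.343).

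GstE14, known as noppera-bo, is needed in the prothoracic gland for the synthesis of the steroid hormone ecdysone, and that gland is attached to the larval brain. It had 19 and 6 counts in brain, 15 and 22 with 4-HT and 17 and 36 in control fat body, or 0.319 and 0.0742 CPM in brain, 0.552 and 0.544 CPM with 4-HT and 1.12 and 1.29 CPM in control fat body. It was called lower in brain (log2 fold change -2.63, SE 0.76, edgeR adjusted p = 0.0187), and the call was lost without brain replicate 2 (-1.85, adjusted p = 0.0771) and without control replicate 2 (-2.51, adjusted p = 0.0586), and it had -3.93 without brain replicate 1. The 7 matched markers of the ring gland, of 12 listed, summed to 10.8 and 4.54 CPM in brain, 0.331 and 0.272 CPM with 4-HT and 0.594 and 0.359 CPM in control fat body. Brain replicate 1 was the higher one both for GstE14 and for this sum, and the part of ring gland tissue in the value was not tested. Of the 5 matched genes of ecdysteroid synthesis, all tested, 3 were higher in brain and 1 was lower, against 35.5% and 34.5% of all tested genes. The higher ones were the prothoracic gland enzymes dib, spok and sad. The lower one was shd, which activates ecdysone in target tissues (log2 fold change -8.98, SE 0.26, edgeR adjusted p = 3.87e-06). For spok the levels were 4.41 and 1.497 CPM in brain, 0.0736 and 0.0247 CPM with 4-HT and 0.0660 and 0.0718 CPM in control fat body. By TMM GstE14 therefore did not share the direction of the 3 other prothoracic gland genes in these libraries. Scaled by library size alone, GstE14 was not called (log2 fold change -0.28, edgeR adjusted p = 0.738).

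The 3 omega class genes, neighbours on chromosome arm 3L with the related gene se between GstO3 and GstO2, split by tissue. GstO3 had 3.02 and 3.48 CPM in brain, 179.9 and 194 CPM with 4-HT and 145 and 119 CPM in control fat body. It was lower in brain by a log2 fold change of -5.34 (SE 0.23, edgeR adjusted p = 6.06e-06; -2.96 when scaled by library size alone). GstO2 had 24.2 and 19.0 CPM in brain, 14.5 and 24.2 CPM with 4-HT and 19.5 and 16.0 CPM in control fat body, and the groups overlapped (log2 fold change 0.28, SE 0.28, edgeR adjusted p = 0.386). Within a library 1 GstO3 count stood beside 8.00 and 5.47 GstO2 counts in brain, whereas 1 GstO2 count stood beside 12.5 and 8.00 GstO3 counts with 4-HT and 7.46 and 7.40 in control fat body. The leading omega gene was thus GstO2 in brain and GstO3 in fat body. GstO1 was low throughout, with 1.29 and 1.10 CPM in brain, 1.21 and 0.668 CPM with 4-HT and 1.58 and 1.40 CPM in control fat body. Its log2 fold change was -0.31 (edgeR adjusted p = 0.555) by TMM and 2.06 (adjusted p = 0.00619) by library size alone. GstO2 shares 61 exonic bases with se on the opposite strand. The level of se was 0 and 0.0247 CPM in brain, 0.478 and 0.297 CPM with 4-HT and 0.330 and 0.395 CPM in control fat body, and the part of opposite-strand reads in the GstO2 counts was not tested.

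GstS1, the only sigma class gene and known for conjugating lipid peroxidation products in muscle, stood with GstD1 at the top of the family per kilobase of coding length in brain. Per kilobase of exonic length, which counts its long untranslated exons, GstS1 had 20.5 and 16.3 CPM per kb in brain and lay below GstD1, with 41.0 and 31.1, and its share of the family there was 13.1% and 12.7%. It had 46.6 and 37.0 CPM in brain, 328 and 345 CPM with 4-HT and 434 and 356 CPM in control fat body. Despite its rank, its level in brain was below every fat body library, with a log2 fold change of -3.24 over control (SE 0.23, edgeR adjusted p = 3.51e-05; -0.86 when scaled by library size alone, adjusted p = 0.00693). The 8 matched muscle markers summed to 21.4 and 21.7 CPM in brain, 39.2 and 27.8 CPM with 4-HT and 63.9 and 47.8 CPM in control fat body. The part of muscle in the level of GstS1 was not tested.

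All 4 theta class genes were called lower in brain by TMM, against 34.5% of all tested genes. The class median was -3.17 on the log2 scale (-0.77 when scaled by library size alone). GstT4, on the X chromosome, had 3.63 and 3.49 CPM in brain, 199 and 221 CPM with 4-HT and 165 and 191 CPM in control fat body, and a log2 fold change of -5.64 (SE 0.22, edgeR adjusted p = 4.65e-06). GstT1 had 7.12 and 7.35 CPM in brain, 86.5 and 98.9 CPM with 4-HT and 90.9 and 72.5 CPM in control fat body, and a log2 fold change of -3.50 (SE 0.20, edgeR adjusted p = 1.58e-05). For both the brain replicates were nearly equal, and the fat body groups overlapped for GstT1 but not for GstT4. GstT2, the neighbour of GstT1 on 2R, had 2.80 and 2.86 CPM in brain, 11.4 and 13.5 CPM with 4-HT and 9.77 and 12.7 CPM in control fat body. Its log2 fold change was -1.99 (edgeR adjusted p = 1.99e-04) by TMM but 0.40 (adjusted p = 0.142) by library size alone, and it shares 223 exonic bases with CG12926 on the opposite strand. GstT3, the other X-linked member, had 2.43 and 2.98 CPM in brain, 10.7 and 30.5 CPM with 4-HT and 14.6 and 24.1 CPM in control fat body. Its fat body replicates differed widely within both groups, and brain was lower (log2 fold change -2.84, SE 0.52, edgeR adjusted p = 0.00282; -0.44 with an adjusted p of 0.447 when scaled by library size alone).

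Genes around the family showed which parts of glutathione metabolism accompanied it. All 3 tested genes of glutathione synthesis and turnover, of 5 listed, were lower in brain, against 34.5% of all tested genes. Gclc, the catalytic subunit of the rate-limiting enzyme of glutathione synthesis, had 5.04 and 5.53 CPM in brain, 55.0 and 39.9 CPM with 4-HT and 43.2 and 48.3 CPM in control fat body (log2 fold change -3.11, edgeR adjusted p = 3.13e-05). Its regulatory partner Gclm had 9.78 and 8.11 CPM in brain, 13.6 and 19.6 CPM with 4-HT and 26.7 and 21.5 CPM in control fat body, a log2 fold change of -1.43 (adjusted p = 0.00173) that turned to 0.95 when scaled by library size alone. Ggt-1, which breaks down glutathione outside the cell, had a log2 fold change of -4.85 (edgeR adjusted p = 6.61e-06). The synthetase genes Gss1 and Gss2 are listed at 0 counts in every library and could not be compared. Whether their transcripts were absent or their reads went uncounted was not tested.

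Of 8 other genes with a glutathione transferase fold or activity, 7 were tested. Brain had higher levels of 3 and lower levels of 4, against 35.5% and 34.5% of all tested genes. The zeta class, whose enzymes isomerize maleylacetoacetate in tyrosine breakdown, held a pair that ran in opposite directions. GstZ2 had 173 and 141 CPM in brain, 0.221 and 0.0247 CPM with 4-HT and 0.858 and 0.359 CPM in control fat body, and a log2 fold change of 8.12 (SE 0.58, edgeR adjusted p = 3.70e-05). GstZ1 had 0.990 and 0.767 CPM in brain, 11.7 and 11.2 CPM with 4-HT and 13.9 and 10.7 CPM in control fat body, and a log2 fold change of -3.80 (SE 0.24, edgeR adjusted p = 2.35e-05). In brain GstZ2 alone came close to the summed CPM of all 33 members (188 and 155), a comparison of levels without correction for length. The zinc finger gene gfzf (log2 fold change 1.68) and the chloride channel gene Clic (1.22) were also higher in brain. The microsomal Mgstl (-3.34), the translation factor subunit eEF1gamma (-1.94) and the mitochondrial Gdap1 (-1.96) were lower in brain by TMM, and eEF1gamma and Gdap1 turned to 0.44 and 0.39 by library size alone. The eye pigment gene se did not pass the filter.

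Among genes of thiol redox reactions and peroxide removal 10 of 16 tested were lower in brain and none was higher, by TMM (34.5% and 35.5% of all tested genes). By library size alone Trx2, Prx3, Grx5 and Sod1 turned from lower to higher calls, at log2 fold changes of 0.79, 1.61, 1.15 and 0.77. On that scale 75.5% of all tested genes were higher, and genes that stayed lower included Prx6b, Prx6c and Cat. The largest differences were those of the peroxiredoxins Prx6b (log2 fold change -7.37, SE 0.63, edgeR adjusted p = 8.29e-05) and Prx6c (-6.74, SE 0.84, adjusted p = 4.62e-04) and of catalase. Catalase (Cat) had 54.8 and 43.8 CPM in brain, 1809.8 and 1681 CPM with 4-HT and 1450.0 and 1313 CPM in control fat body, a log2 fold change of -4.81 (SE 0.24, edgeR adjusted p = 9.96e-06). The thioredoxin reductase gene Trxr1, which also serves glutathione reduction in flies, had 111 and 90.02 CPM in brain, 118 and 136 CPM with 4-HT and 116 and 109 CPM in control fat body and did not pass (log2 fold change -0.16, edgeR adjusted p = 0.473). Of 4 matched regulators of xenobiotic and oxidative responses, the sensor Keap1 (log2 fold change -1.77), the nuclear receptor Hr96 (-1.54) and maf-S (-0.76), which encodes the partner of CncC, were lower in brain by TMM. All 3 were positive by library size alone (0.63, 0.85 and 1.61). The median over these 2 lists moved likewise, at -1.59 and -1.22 by TMM and at 0.78 and 1.15 by library size alone, beside 0.11 and 2.49 over all tested genes.

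The second comparison set fat body of larvae fed 4-HT, the inducer of the intein, against control fat body. None of the 30 tested members passed at an edgeR adjusted p under 0.05, nor did any of the 10029 genes (0.00%), and none of the genes of the 5 pathway lists. DESeq2 called 0 members as well, and 0.422% of all genes it tested. At an unadjusted p under 0.05 edgeR had 2 of 30 members, GstE1 and GstO3, against 5.94% of all tested genes. The median log2 fold change was -0.22 over the members and 0.01 over all tested genes, with 10 members positive and 20 negative. That direction rested on single libraries: the members' median was 0.14 without control replicate 1, with 18 positive and 12 negative, and 0.0019 without 4-HT replicate 1, with 16 positive and 14 negative. Both 4-HT replicates lay above both controls for 3 members and below them for 5 (15.5% and 14.6% of all tested genes). That none passed does not show equal levels, since the SE of the log2 fold change ran between 0.18 for GstE12 and 1.21 for GstD11.

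GstO3 and GstE1, whose values are given above, were higher in both 4-HT replicates than in both controls. The log2 fold change was 0.50 for GstO3 (SE 0.19, edgeR adjusted p = 0.835) and 0.44 for GstE1 (SE 0.18, adjusted p = 0.835). GstT4 was the other member without overlap in this direction, with 0.24 (SE 0.18, adjusted p = 0.924). The members lower in both 4-HT replicates were GstD1, GstE12, GstE14, GstO1 and GstS1, at log2 fold changes of -1.10 (SE 0.47, adjusted p = 0.837), -0.14, -1.14, -0.67 and -0.23. Without control replicate 1 GstD1 came to -0.14 and GstS1 to -0.08. The abundant GstE3, whose groups overlapped, had -0.08 (SE 0.22, adjusted p = 0.994). For the family sum, the mean was 2142 ± 145 CPM with 4-HT and 2415 ± 543 CPM in control fat body (SD, n = 2 each), so the control replicates differed from each other by more than the groups did.

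The values of class D with 4-HT rested on 1 control library. All 10 tested class D genes had a negative log2 fold change with 4-HT, in edgeR, with a median of -0.81, and in DESeq2. In edgeR fits under library size alone and under the scaling of DESeq2 this held for 9 of 10. Without control replicate 1 the median in edgeR was -0.03, with 5 of 10 positive. Over these 10 genes the median difference of control replicate 1 over control replicate 2 was 1.53 on the log2 scale. Of the 10 genes 8 were over 2-fold higher in control replicate 1, against 10.9% of all tested genes. In class E this held for 3 of 12 genes, and in classes O, S and T for none of 8. The 11 class D genes summed to 221 and 221 CPM with 4-HT and to 692 and 237 CPM in control fat body, so that the 4-HT libraries and control replicate 2 lay close together. The salivary gland sum moved with this class (1875 and 98.0 CPM in control replicates 1 and 2). Of the 10 hemocyte markers 7 were higher in control replicate 1, including NimC1 (5.48 and 1.22 CPM) and eater (10.95 and 2.44 CPM). So were 5795 of all 10029 tested genes, so this count alone does not set the hemocyte markers apart. The hemocyte sum did not move with class D (1835 and 2039 CPM), since Col4a1, srp and lz were higher in control replicate 2. The part of other tissues in the class D levels was not tested. Within the 4-HT group, whose salivary gland sums were 75.3 and 60.0 CPM, class D genes differed too. GstD6 and GstD7 were higher in replicate 2, as the counts above show, and GstD3 had 134 and 51 counts.

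**Figure D5:**
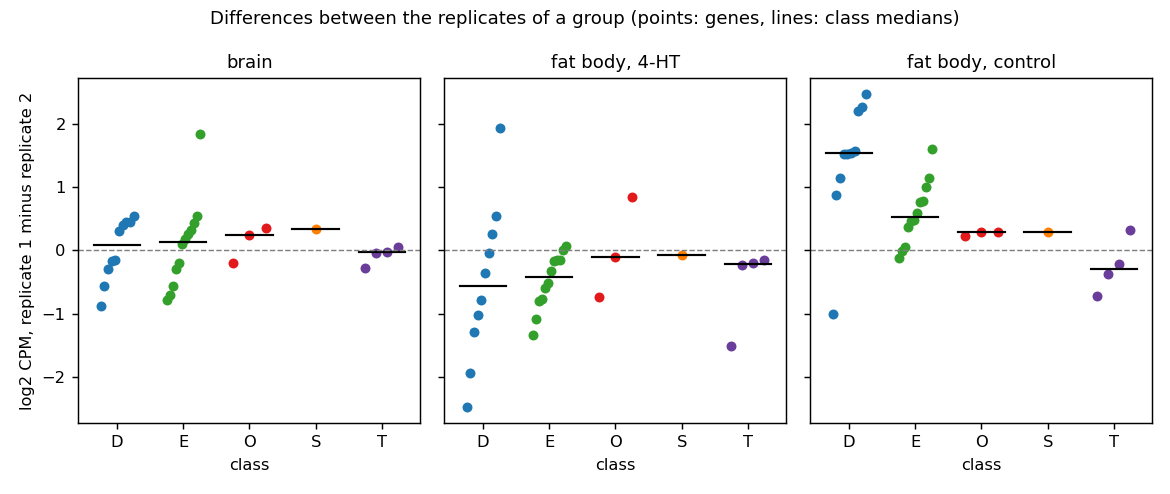
Points give the difference between replicates 1 and 2 of a group in log2 CPM (prior count of 2) for the 30 tested genes, by class, with black lines at class medians and a dashed line at 0, for brain (left), 4-HT fat body (middle) and control fat body (right). Class D is centred at 1.53 in control fat body and lies near 0 in brain.

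The theta class was the 1 class of several genes whose tested members all had a positive log2 fold change with 4-HT, between 0.09 and 0.24 with a median of 0.16, under each scaling tried, but GstT2 and GstT3 were negative without control replicate 1, and GstT3 also without 4-HT replicate 2 and with a replicate block. None of the 4 passed, and the adjusted p values began at 0.924. In the authors' deposited table, which rests on DESeq, 0 of the 33 members passed an adjusted p under 0.05 with 4-HT, against 0.0229% of all its genes with an adjusted p. For brain over control the authors' deposited table has 1 member higher and 18 lower at that threshold, against 20.5% and 19.3% of all its genes with an adjusted p (39.8% in either direction), and the 5 called lower here and not in the authors' deposited table are GstD1, GstD2, GstD9, GstE6 and GstE14. Each of these 5 moved by over 1.5-fold when a single library was left out. So did GstD4, GstD6, GstD7, GstD10, GstE2, GstE5 and GstE9, which passed in the authors' deposited table too, so this does not set the 5 apart.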

How the data were processed

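The authors deposited unscaled whole-number counts for each FlyBase gene. Per the submitters' processing notes, which give no versions, TopHat, HTSeq and DESeq were used with the build dm3. Neither the strand setting nor the annotation release is given in the sources used here. The deposited comparison tables give, per the file headers, a signal (mean of counts over size factors), a fold change ratio, its log2 value and p-values made by the authors. A total of 13524 of 14869 identifiers were given a symbol from release 6 gene tables, from which coding lengths and gene order were also taken, without coordinates.

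Genes kept by filterByExpr (10029) were fitted with edgeR 4.0.16 in R 4.3.3 (TMM, estimateDisp and glmQLFit robust, glmQLFTest) on the 6 libraries together, by group, which leaves 3 residual degrees of freedom. Calls were made under 0.05 after Benjamini-Hochberg adjustment across every tested gene. The SE is the log2 fold change divided by the square root of F. DESeq2 1.42.0, other scalings and filters, a replicate block and fits without 1 library were alternatives. A ratio with 3 or fewer counts in a group has a 95% exact counting interval, and a group without counts a floor of 3 counts. Fits were tested on simulated data. The 33 members and the 17 gene lists (165 entries, 144 matched) were chosen with earlier results of these data known. Text names every member, every gene of the list of other glutathione transferases and up to 3 called genes of each other pathway list. Single markers, Gss1, Gss2, Trxr1, Trx2, Prx3, Grx5, Sod1 and sad were named after their values were seen.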

Additional observations from a re-analysis of the deposited data

How the results depend on the processing

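Of the 30 tested members, 17 kept both sign and side of the threshold for brain over control fat body under every alternative that tested them. With 4-HT every alternative called 0 members, but the sign held throughout for only 15 of 30. Calls in the tissue comparison numbered 24 and ran from 21 to 25. Members called higher numbered 1, but 2 with upper quartile scaling, 2 without a filter on low counts, 2 with only the 4 libraries compared (each time GstE13 joined) and 6 by library size alone, and 1 to 2 in fits without 1 library. For brain over control the sign turned by library size alone for GstD3 (1.57), GstE1 (0.0047), GstO1 (2.06) and GstT2 (0.40) on the log2 scale, and that scaling moves the median of all genes to 2.49. Upper quartile scaling turned GstO1 to 0.016, and fits without 1 library ran from -1.51 to 0.73 for GstD3 and from -0.20 to 2.03 for GstD11. With 4-HT, GstD6 turned in edgeR to 0.0015 under the scaling of DESeq2, 0.061 by library size alone and 0.028 without a filter. The DESeq2 fit itself had -0.0037 for GstD6. GstT3 turned to -0.012 with the replicate block. Fits without 1 library turned 15 members with 4-HT, from -1.10 to 0.03 for GstD4, -1.39 to 0.97 for GstD6, -2.72 to 0.78 for GstD7, -1.52 to 0.76 for GstD9, -1.43 to 0.14 for GstD10, -1.19 to 0.94 for GstE2, -0.29 to 0.16 for GstE3, -0.51 to 0.49 for GstE5, -0.85 to 0.75 for GstE6, -0.63 to 0.14 for GstE7, -1.02 to 0.086 for GstE8, -0.60 to 0.15 for GstE11, -0.29 to 0.46 for GstO2, -0.03 to 0.36 for GstT2 and -0.87 to 0.65 for GstT3; the cause was not tested. Whether libraries of the same replicate number share a day or batch is not given in the sources used here. The r of deviations was 0.188 for brain with control, -0.137 for 4-HT with control and -0.090 for brain with 4-HT. With 2 replicates a group it cannot decide whether the samples are paired. The fit with the replicate block called 24 and 0. Class shares per kilobase of coding length moved by at most 2.45 percentage points, and per kilobase of exonic length, a basis chosen after seeing the data, for levels too, class S took 13.1% and 12.7% in brain and class D, at 33.2%, passed class E, at 32.1%, in brain replicate 1. Fits without 1 library leave a lone sample whose spread is taken from the other groups. With 2 pools a group and 0 to 5 counts in several brain genes, depth limits GstD2, GstD6, GstD7, GstD8, GstE4 and GstE10.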
